A study of Mus musculus with 36 samples.

Results

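The cell cycle and DNA replication genes described here are 40 protein-coding genes taken by their symbols from the table of raw counts, which holds 16614 rows, and they make up 0.2414% of its 16568 protein-coding rows. All 40 were found, and all 40 passed the filter on low counts in each of the 22 comparisons. The libraries came from whole brains of C57BL/6 mice (WT) and FMR1-KO mice (FMR1 KO), which lack the RNA-binding protein FMRP. Each of the 36 libraries was made from a pool of 10 brains of 5-day-old animals. Ribosome clusters were separated on sucrose gradients into the pellet, which the study takes as the fraction with RNA granules though it need not hold only these, and fraction 5/6, which holds clusters that did not pellet. The fragments that ribosomes protect from nuclease (RPFs) were sequenced from both in 24 libraries, and RNA of the whole homogenate was sequenced in 12. The standard preparation used high nuclease and 10 mM MgCl2, the low nuclease preparation used less nuclease and 2.5 mM MgCl2, and each of the 12 combinations of genotype, material and preparation had 3 libraries.

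Dividing cells copy their DNA in S phase and separate the copies in mitosis, and transcripts of the machinery for both steps rise in cells that pass through the cycle and are low in neurons that have left it. At this age the mouse brain still holds dividing progenitors, among them the granule cell precursors of the cerebellum and the precursors of glia. The 40 genes fall into 7 roles. Chromosome structure was represented by Mki67, Top2a, Smc2, Smc4, Ncapd2 and Ncapg. The replicative helicase was represented by its subunits Mcm2 to Mcm7. Replication and nucleotide supply comprised Pcna, Rrm1, Rrm2, Tyms, Pole and Pola1. The G1 cyclins and kinases were Ccnd1, Ccnd2, Cdk2, Cdk4 and Cdk6, and those of G2 and mitosis were Ccnb1, Ccnb2, Ccna2, Cdk1, Aurka, Aurkb and Plk1. The spindle and kinetochore genes were Bub1, Bub1b, Tpx2, Kntc1, Cenpe, Cenpf and Aspm, and the cytokinesis genes were Anln, Racgap1 and Ect2.

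Levels are given as CPM, counts relative to library sizes scaled by TMM, a method that sets the bulk of genes level between libraries. Cdk8 was left out of all totals because it took 36.7% to 63.4% of the counts of the standard RPF libraries. Without it, these libraries held 4284209 to 21274803 counts, the low nuclease RPF libraries 22378936 to 60377525 and the RNA libraries 38505915 to 147207607. The deleted gene Fmr1 had 73.7 to 87.5 CPM in the WT pellet and 5.33 to 7.62 in the FMR1 KO pellet of the standard preparation. In WT fraction 5/6 it had 112, 117 and 3.63 CPM, and in FMR1 KO fraction 5/6 7.80 to 8.45. The low value goes against a label, so this library is called the library labelled WT fraction 5/6 replicate 3, and the main counts of calls and medians that rest on it are given with and without it. In 3 RNA libraries of the low nuclease preparation, namely replicate 2 of WT and of FMR1 KO and replicate 3 of FMR1 KO, 82.4% to 85.03% of the counts lay on 10 genes. The 3 barcoded samples of an RPF group were pooled before reverse transcription and amplification, so a difference between RPF groups and a difference between their pools cannot be told apart, and p-values measure the spread between 3 pools of brains.

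The peaks of RPF coverage in the standard preparation show where on these mRNAs the protected fragments gathered. Their middles lay within 6 nt of each other in all 3 libraries of a group in 16 cases, counted for each group by itself so that a position such as Pcna codon 208 can count in more than 1 group, and 8 of these, chosen after the positions were seen, are printed as examples from both genotypes. Each window spans 29 nt around the middle of the peak, is read 5′ to 3′ on the coding strand from GENCODE M21 transcripts on GRCm38, and has the codon that holds the middle in capitals. The names give the gene, the codon and the group.
Top2a codon 1279, FMR1 KO pellet: tacattgccgtttAAGcctgtcaaaaaag
Mcm4 codon 827, WT pellet: gtttgaggatattCGGggacagtctgaca
Pcna codon 63, WT pellet: acacataccgctgcGACcgcaacctagcc
Pcna codon 208, FMR1 KO pellet: cacctaacgtttGCTctgaggtacctgaa
Pcna codon 208, FMR1 KO fraction 5/6: tcacctaacgtttGCTctgaggtacctga
Ccnd2 codon 150, FMR1 KO pellet: agctgaagtggaacCTGgccgcagtcacc
Ccnd2 codon 152, WT pellet: tggaacctggccGCAgtcacccctcacga
Rrm2 codon 33, WT pellet: ctgacaaggagaacACGcccccgactctc

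The Top2a window lies on the minus strand at chr11:98996831-98996859, late in a coding sequence of 1528 codons, and its peaks had coverage heights of 29 to 45. The Mcm4 window, at chr16:15625564-15625592 on the minus strand, falls near the end of 862 codons, with heights of 11 to 14. Pcna codon 208 of 261, at chr2:132249842-132249870 on the minus strand, had a shared peak in the FMR1 KO pellet, with heights of 17 to 30, and in FMR1 KO fraction 5/6, with heights of 20 to 46. The Ccnd2 windows at codons 150 and 152 of 289 overlap on the minus strand (chr6:127146129-127146157 and chr6:127146121-127146149) and came from the 2 genotypes. Heights were not scaled between libraries by the authors, so they are not compared across them. The Rrm2 window crosses an exon junction.

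The first question was how far the RNA levels of these genes carry over to the RPFs. In the WT RNA of the standard preparation, levels per kilobase of exon (RPKM) were highest for Cdk4 (24.2), Ccnd2 (21.8) and Pcna (16.2) and lowest for Kntc1 (0.63) and Pole (0.69). In the WT pellet the highest were Pcna (19.0), Top2a (18.4), Cdk4 (17.8), Rrm2 (16.3) and Mcm6 (15.4), and the lowest was Cdk6 (0.48). These are means of 3 libraries. The helicase subunits and Top2a, the topoisomerase that untangles replicated chromosomes, thus stood higher in the order of pellet RPFs, and the G1 regulators Ccnd2 and Cdk6 stood lower. Exon length also counts untranslated bases, while RPFs come from coding sequence. Cdk6 has 13989 nt of exon and 978 nt of coding sequence, and Ccnd2 has 9409 and 867. The pellet order is therefore not an order per coding base. The summed level of the 40 genes in WT RNA was 808, 795 and 1176 CPM, and in the WT pellet it was 1476, 1677 and 1420. Replicate 3 of the WT RNA was the highest of its group in the sum of these genes and in that of 10 progenitor markers (253, 313 and 491 CPM). In these bulk samples, fewer cells of a type and less RNA per cell cannot be told apart.

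**Figure D1:**
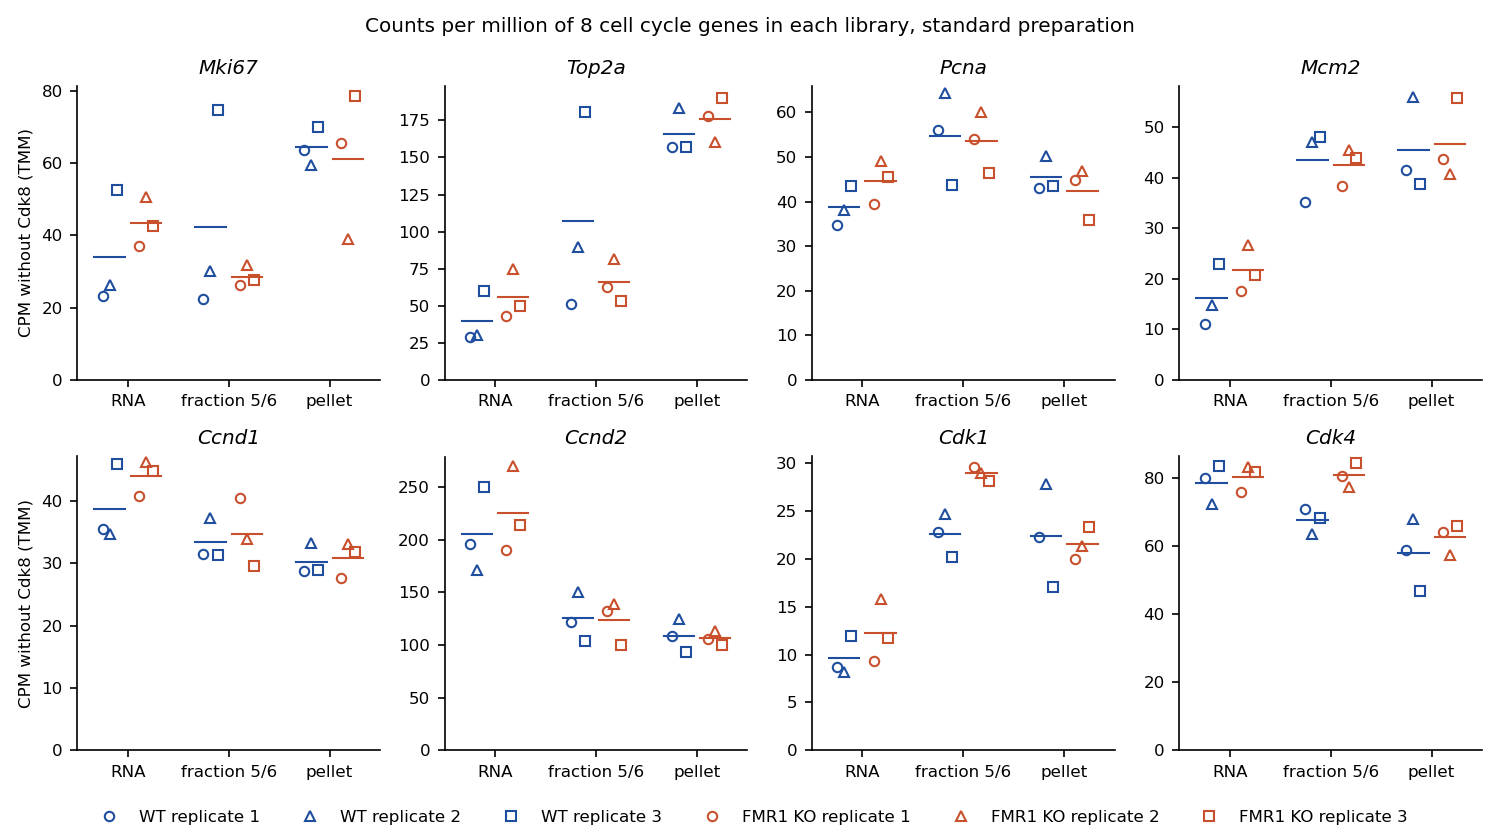
Levels of 8 genes in the standard preparation, in CPM without Cdk8 on linear axes from 0, for RNA, fraction 5/6 and pellet. Each point is 1 library (WT blue, FMR1 KO orange, circle, triangle and square for replicates 1, 2 and 3) and each line is the mean of 3; for Top2a the 6 pellet libraries lie between 157 and 190.1 CPM, and for Ccnd2 they lie between 93.2 and 124.

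Occupancy, the RPFs of the pellet relative to RNA, was higher than the typical gene's for most of the 40 genes. In WT, 26 of 40 were higher and 4 lower in the pellet, while 28.8% of all 16180 genes tested were higher and 37.0% lower. The median log2 difference was 0.91 over the 40 genes and -0.20 over all genes, and 33 of the 40 values were above 0. In FMR1 KO, 24 were higher and 6 lower, against 30.5% and 36.5% of 16184 genes, with medians of 0.73 and -0.11. The same 24 genes were higher in both genotypes, and Ccnd2, Ccnb1, Cdk4 and Cdk6 were lower in both. The genotypes thus shared every higher call of FMR1 KO. The share of a transcript that is coding goes along with these values: Spearman's rho across the 40 genes was 0.61 in WT and 0.59 in FMR1 KO, against 0.27 and 0.28 across all genes. In the low nuclease preparation described further on, rho across the 40 genes was lower, at 0.26 in WT and 0.25 in FMR1 KO. RPFs come from coding sequence and RNA reads from the whole transcript, and the part of this in the result was not tested.

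The scaling sets where 0 lies. With library size alone, the median of all genes moved from -0.20 to -1.26 in WT and from -0.11 to -1.17 in FMR1 KO, and the medians of the 40 genes became -0.17 and -0.30. Calls then turned to 5 higher and 14 lower in WT and 4 higher and 16 lower in FMR1 KO. Relative to the median of all genes, the 40 genes stood 1.11 higher with TMM and 1.09 higher with library size alone in WT, and 0.85 and 0.87 higher in FMR1 KO. Occupancy is therefore read here against the median of all genes.

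The replicative helicase, the ring that unwinds DNA ahead of the polymerases, had among the highest occupancies. In both genotypes 5 of its 6 subunits were higher, with a median log2 of 1.53 in WT and 1.36 in FMR1 KO (0.48 and 0.32 with library size alone, 1.74 and 1.48 above the median of all genes). Mcm4 had 11.3, 12.4 and 17.7 CPM in WT RNA and 52.7, 60.3 and 45.2 in the WT pellet. In FMR1 KO it had 14.2, 19.1 and 17.99 in RNA and 57.3, 52.9 and 60.7 in the pellet. Every pellet library of Mcm4 was above every RNA library, and its log2 difference was 1.93 ± 0.20 in WT (edgeR adjusted p = 0.000117, ± being the standard error here and below) and 1.74 ± 0.14 in FMR1 KO (edgeR adjusted p = 4.1e-05). Mcm2 had 11.01, 14.9 and 23.0 CPM in WT RNA and 41.6, 55.95 and 38.8 in the WT pellet, again without overlap. In FMR1 KO, Mcm2 had 17.5, 26.8 and 20.8 in RNA and 43.8, 40.9 and 55.8 in the pellet, also without overlap, and its log2 differences were 1.48 ± 0.28 and 1.11 ± 0.19. In FMR1 KO, Mcm6 had 75.6, 187 and 77.0 CPM in the pellet, with replicate 2 far above the others, and its log2 difference of 1.92 ± 0.37 rests in part on that library. Mcm7 was the subunit not called, at a log2 difference of 0.36 in WT, and 7.25% of its exon bases are shared with Ap4m1 on the other strand.

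Ribonucleotide reductase makes the deoxyribonucleotides used in replication, and its large subunit Rrm1 had the largest rise of the 40 genes. Rrm1 had 20.6, 25.2 and 36.6 CPM in WT RNA and 153, 163 and 153 in the WT pellet. In FMR1 KO it had 29.8, 35.7 and 34.7 in RNA and 177, 142 and 174 in the pellet. The groups did not overlap in either genotype, and the log2 differences were 2.51 ± 0.22 in WT (adjusted p = 4.75e-05) and 2.299 ± 0.14 in FMR1 KO (adjusted p = 1.51e-05, both by edgeR). The small subunit Rrm2 and the polymerase subunits Pole and Pola1 were also higher in both genotypes. Pcna, the clamp that holds polymerases on DNA, had 34.7, 38.1 and 43.6 CPM in WT RNA and 43.1, 50.1 and 43.5 in the WT pellet. The FMR1 KO libraries had 39.4, 49.2 and 45.4 in RNA and 44.8, 46.8 and 35.8 in the pellet. Both pairs of ranges overlap, and Pcna was not called in WT (log2 0.23 ± 0.13) or in FMR1 KO (log2 -0.07 ± 0.14). For replication and nucleotide supply as a group, 4 of 6 genes were higher in each genotype, with medians of 0.98 and 1.10 (-0.06 and 0.06 with library size alone).

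Most genes of chromosome structure and those of the spindle were higher as well. Of the 6 genes of chromosome structure, 5 were higher and 0 lower in WT. In FMR1 KO 4 were higher and 1, Ncapg, was lower (log2 -0.53). The medians of this role were 1.07 and 0.82 (0.001 and -0.20 with library size alone). With library size alone 2 were higher and 1 lower in WT, and 0 higher and 1 lower in FMR1 KO. Top2a had 28.8, 30.5 and 59.8 CPM in WT RNA and 157, 183 and 157 in the WT pellet. The FMR1 KO values were 42.9, 74.9 and 49.6 in RNA and 178, 160.3 and 190.1 in the pellet. All pellet libraries of Top2a were above all RNA libraries, with log2 differences of 2.06 ± 0.29 in WT (adjusted p = 0.000533) and 1.66 ± 0.22 in FMR1 KO (adjusted p = 0.000459, both by edgeR). The condensin subunit Smc2 rose by 1.79 ± 0.23 in WT, from 10.7, 11.5 and 18.9 CPM in RNA to 42.8, 51.7 and 47.9 in the pellet. Mki67, which coats mitotic chromosomes and is used to mark dividing cells, had 23.1, 26.3 and 52.5 CPM in WT RNA and 63.7, 59.4 and 70.0 in the WT pellet, a rise of 0.92 ± 0.30 (edgeR adjusted p = 0.0291) that was -0.15 with library size alone, against -1.26 over all genes. The corresponding FMR1 KO values were 37.0, 50.6 and 42.6 in RNA and 65.5, 39.0 and 78.5 in the pellet. These ranges overlap because pellet replicate 2 was low, and Mki67 was not called there (log2 0.49 ± 0.25, edgeR adjusted p = 0.124). All 7 spindle and kinetochore genes were higher in both genotypes, with medians of 1.20 and 0.83 (0.14 and -0.20 with library size alone, 1.40 and 0.97 above the median of all genes). The kinetochore motor Cenpe led them, with 7.03, 6.31 and 10.99 CPM in WT RNA against 28.9, 25.9 and 42.1 in the WT pellet and log2 differences of 1.99 ± 0.27 in WT and 2.06 ± 0.26 in FMR1 KO.

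The regulators that govern entry into the cycle went the other way in the standard preparation or did not pass the test. Of the 5 G1 cyclins and kinases none was higher, 3 were lower in WT and 4 in FMR1 KO, with medians of -0.44 and -0.51. Over all genes 37.0% were lower in WT and 36.5% in FMR1 KO, with medians of -0.20 and -0.11. Relative to those medians the role stood at -0.24 and -0.40. Cdk6, a partner of the D-type cyclins, had 22.9, 21.2 and 27.7 CPM in WT RNA and 5.86, 7.36 and 6.71 in the WT pellet, with no overlap. Its log2 difference was -1.85 ± 0.16 in WT (edgeR adjusted p = 4.35e-05) and -1.84 ± 0.18 in the other genotype (edgeR adjusted p = 0.000104). Cyclin D2 (Ccnd2) had 196, 171 and 249.6 CPM in WT RNA and 109, 124 and 93.2 in the WT pellet. The FMR1 KO libraries had 190.5, 269.9 and 214 in RNA and 106, 114 and 100.4 in the pellet. Ccnd2 therefore fell in both, by 0.92 ± 0.18 and 1.08 ± 0.16, and all pellet libraries were below all RNA libraries.

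Smaller differences were seen for the other members of that role. Ccnd1 had 35.4, 34.7 and 45.9 CPM in WT RNA and 28.7, 33.1 and 28.9 in the WT pellet (log2 -0.36 ± 0.14, edgeR adjusted p = 0.0603). Without FMRP, Ccnd1 had 40.7, 46.1 and 44.8 in RNA and 27.6, 33.1 and 31.7 in the pellet, and fell by 0.51 ± 0.10 (edgeR adjusted p = 0.0039). The groups do not overlap in either genotype. Cdk4 had 80.0, 72.5 and 83.5 CPM in WT RNA and 58.9, 67.9 and 46.9 in the WT pellet, and fell by 0.44 ± 0.15 (edgeR adjusted p = 0.0354). In FMR1 KO it had 75.8, 83.1 and 81.9 in RNA and 64.1, 57.5 and 66.0 in the pellet, with a fall of 0.36 ± 0.10 (edgeR adjusted p = 0.0136). All 6 pellet libraries of Cdk4 were below the 6 RNA libraries. Of the exon bases of Ccnd1 and Cdk4, 23.4% and 19.7% overlap a gene on the other strand (LTO1 and Tspan31), and the strand setting of the counting is not given in the sources used here. Relative to the median of all genes with library size alone, the G1 role stood at -0.22 in WT and -0.40 in FMR1 KO.

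The cyclins and kinases of G2 and mitosis were split. Cdk1, the kinase that drives entry into mitosis, had 8.66, 8.21 and 11.99 CPM in WT RNA and 22.3, 27.8 and 17.1 in the WT pellet. FMR1 KO libraries had 9.31, 15.7 and 11.7 in RNA and 20.0, 21.3 and 23.3 in the pellet. Cdk1 rose by 1.22 ± 0.22 and 0.81 ± 0.20 without overlap (the latter -0.23 with library size alone), and the mitotic kinase Plk1 was higher in both as well. Its partner cyclin B1 (Ccnb1) had 9.67, 8.69 and 14.9 CPM in WT RNA and only 3.97, 5.39 and 2.61 in the WT pellet. Its log2 difference was -1.46 ± 0.31 in WT (edgeR adjusted p = 0.00412) and -1.71 ± 0.28 in the other genotype (edgeR adjusted p = 0.00134). The median of the role was 0.36 in WT and -0.01 in FMR1 KO, below the other roles apart from G1. The cytokinesis genes Anln and Ect2 were higher in both genotypes, and Racgap1 in WT.

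**Figure D2:**
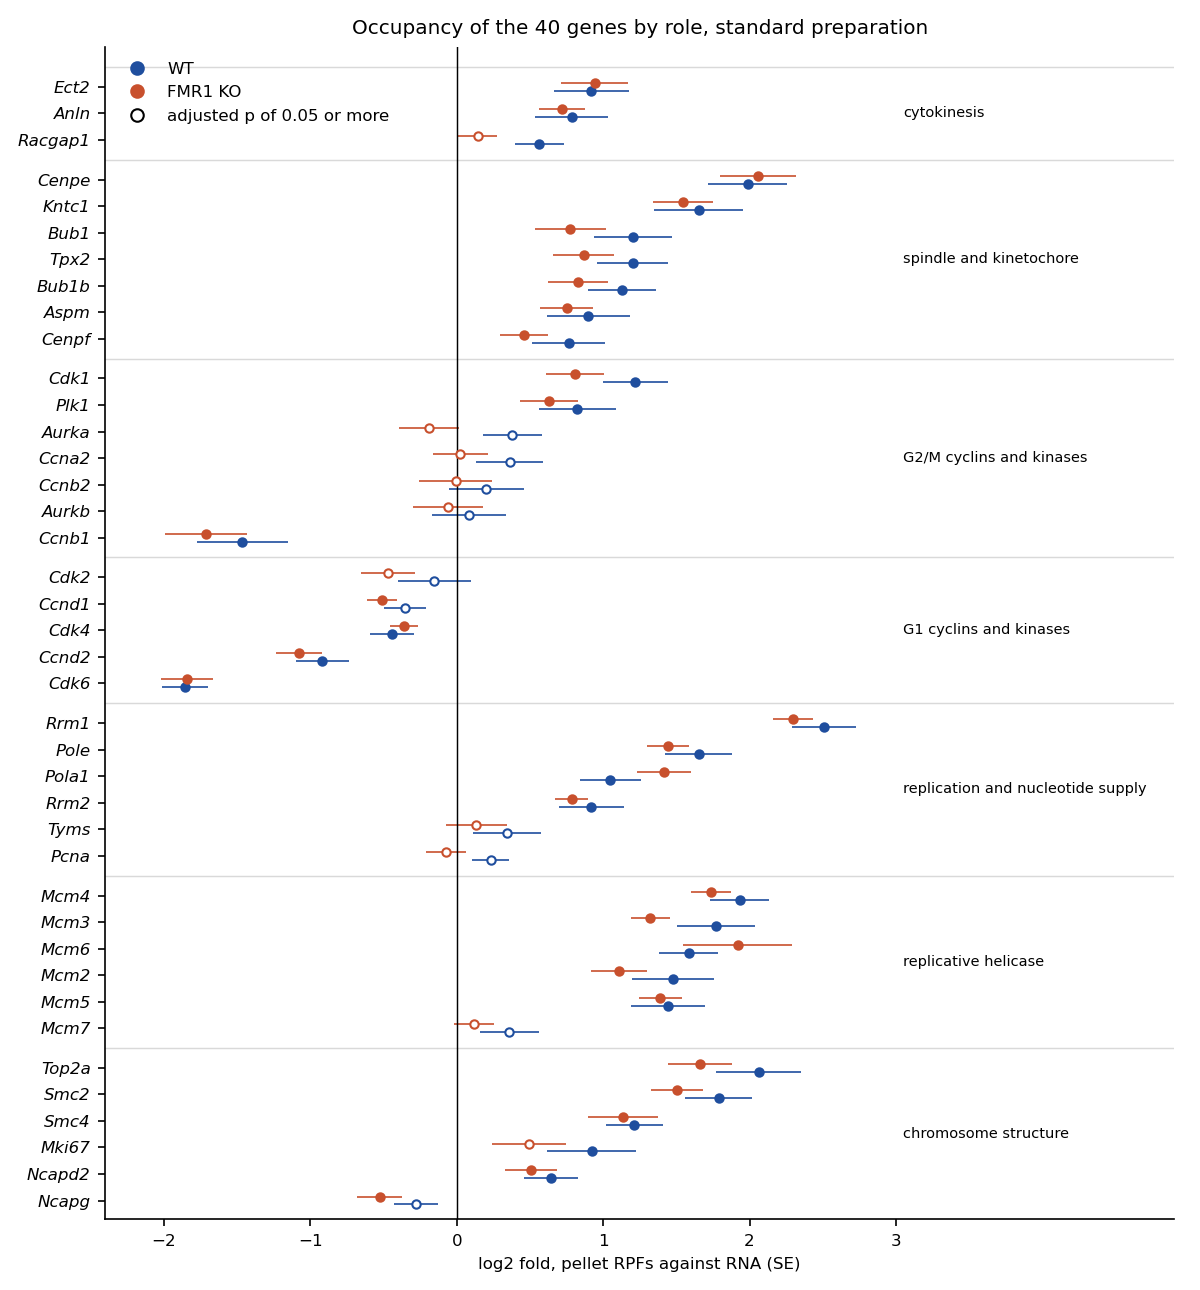
Log2 difference of pellet RPFs against RNA for each of the 40 genes, grouped by role, in WT and FMR1 KO of the standard preparation (filled points are past an adjusted p of 0.05, bars are standard errors). All 7 spindle and kinetochore genes are filled above 0, and the G1 cyclins and kinases lie at or below 0.

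RPFs of fraction 5/6 differed from RNA in a similar pattern with fewer calls. In WT, 17 of the 40 genes were higher and 4 lower (24.9% and 31.1% of all 16213 genes), with a median of 0.74 against -0.13 over all genes. Without the library labelled WT fraction 5/6 replicate 3, 19 were higher and 3 lower, and the median was 0.65. In that fit 9969 of all 16456 genes were called in either direction, and their median was -0.21 over all genes tested. In FMR1 KO, 15 were higher and 5 lower (26.9% and 36.5% of 16172 genes), with medians of 0.36 and -0.21. With library size alone the balance of calls turned over, to 1 higher and 8 lower in WT and 2 higher and 15 lower in FMR1 KO, and the medians of the 40 genes were -0.37 and -0.47, against -1.22 and -1.03 over all genes. The pellet and fraction 5/6 were set against the same RNA libraries, so these values are not independent of the occupancies above.

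The helicase was high here too. Mcm4 had 37.1, 54.0 and 57.4 CPM in WT fraction 5/6 and 40.6, 54.6 and 48.5 in FMR1 KO, all above RNA, with log2 differences of 1.84 ± 0.25 and 1.49 ± 0.16. Mcm5 rose by 1.80 ± 0.26 and 1.36 ± 0.14, and Mcm6 by 1.67 ± 0.22 and 1.40 ± 0.15. Cdk6, Ccnb1, Ccnd2 and Ncapg were lower in both genotypes. The condensin subunit Ncapg had log2 differences of -0.83 ± 0.22 in WT and -1.31 ± 0.20 in FMR1 KO, falling from 18.6, 16.1 and 21.7 CPM in WT RNA to 7.87, 11.8 and 12.3 in WT fraction 5/6. Lcorl on the other strand overlaps 13.4% of the exon bases of Ncapg. Mki67 had 26.2, 31.9 and 27.5 CPM in FMR1 KO fraction 5/6, below the 37.0 to 50.6 of its RNA, and fell by 0.60 ± 0.15 (edgeR adjusted p = 0.00773). Of the other genes given for every library, Mcm2 and Cdk1 rose in both genotypes and Pcna passed the test in neither. Mcm2 had 35.2, 47.1 and 48.2 CPM in WT fraction 5/6 and 38.3, 45.6 and 43.9 in FMR1 KO, above all RNA libraries of its genotype, and rose by 1.41 ± 0.29 and 0.97 ± 0.17. Cdk1 had 22.8, 24.7 and 20.2 in WT and 29.6, 29.0 and 28.1 in FMR1 KO, and rose by 1.23 ± 0.19 and 1.24 ± 0.19. Pcna had 56.1, 64.4 and 43.8 in WT and 54.1, 60.2 and 46.4 in FMR1 KO, at log2 values of 0.50 ± 0.18 and 0.26 ± 0.14 that were not called. Among the G1 genes only Ccnd2 and Cdk6 fell here. Ccnd2 had 122, 150.3 and 104 CPM in WT and 133, 138 and 100.4 in FMR1 KO, with differences of -0.71 ± 0.23 and -0.86 ± 0.19. Ccnd1 had 31.4, 37.2 and 31.2 in WT and 40.4, 33.9 and 29.6 in FMR1 KO, and Cdk4 had 71.0, 63.5 and 68.3 in WT and 80.6, 77.5 and 84.5 in FMR1 KO, neither of them called.

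When the library labelled WT fraction 5/6 replicate 3 was left out, the WT differences were 1.71 for Mcm4, 1.92 for Mcm5 and 1.70 for Mcm6, and -0.97 for Ncapg, all called. Rrm1 went from 2.06 to 1.71 and stayed called. Top2a went from 1.43 to 0.82, Cenpe from 1.55 to 1.12 and Ccnd2 from -0.71 to -0.59, and these lost their call (edgeR adjusted p = 0.114, 0.0946 and 0.0513). Aurka, Aurkb, Pcna and Tyms were then called higher, Pcna at 0.63 (edgeR adjusted p = 0.00881).

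Enrichment, the pellet against fraction 5/6, asked which of these mRNAs had relatively more RPFs in the pellet. In FMR1 KO 7 of the 40 genes were higher and none lower, while 8.06% of all 13326 genes were higher and 3.49% lower. The median of the 40 was 0.11 against -0.08 over all genes. With library size alone 2 of the 7 were called, and the medians became -0.13 and -0.34. Leaving out each FMR1 KO library in turn gave 2 to 8 calls. In WT none was called either way, where 0.0152% of 13128 genes were higher (2 genes) and 0.00762% lower (1 gene) by edgeR. At an unadjusted p under 0.05 there were 867 genes, 1 of them among the 40, and DESeq2 called 90 genes and none of the 40. Without the library labelled WT fraction 5/6 replicate 3, edgeR called 1217 genes, 2 of them among the 40, and both were higher. A call in FMR1 KO and none in WT does not show that the genotypes differ, and the difference itself is given below.

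The largest rise in FMR1 KO was that of Kntc1, a kinetochore protein of the spindle checkpoint. Kntc1 had 4.17, 4.83 and 2.75 CPM in FMR1 KO fraction 5/6 and 18.4, 19.9 and 14.1 in the pellet, with no overlap and a log2 difference of 2.13 ± 0.25 (edgeR adjusted p = 0.00503). In WT it had 3.70, 5.02 and 16.5 in fraction 5/6 and 15.6, 16.4 and 15.2 in the pellet. The high WT value is that of replicate 3, and the WT difference was 0.90 ± 0.55 with it and 1.89 without it (edgeR adjusted p = 0.602 and 0.0121). Top2a had 63.0, 81.6 and 53.2 CPM in FMR1 KO fraction 5/6 and 178, 160.3 and 190.1 in the pellet, a rise of 1.42 ± 0.18 (edgeR adjusted p = 0.00722). In WT it had 51.1, 89.5 and 181 in fraction 5/6 and 157, 183 and 157 in the pellet, where replicate 3 of fraction 5/6 lies among the pellet libraries. The WT difference of Top2a was 0.63 ± 0.44 with that library and 1.24 without it (edgeR adjusted p = 0.603 and 0.0524).

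Cenpe had 13.6, 12.9 and 5.87 CPM in FMR1 KO fraction 5/6 and 40.3, 59.3 and 28.0 in the pellet, and rose by 1.96 ± 0.38 (edgeR adjusted p = 0.0259). Mki67 rose by 1.09 ± 0.25 (edgeR adjusted p = 0.0399), from 26.2, 31.9 and 27.5 CPM in fraction 5/6 to 65.5, 39.0 and 78.5 in the pellet. Both groups of libraries were separate. In WT, Mki67 had 22.3, 30.1 and 74.7 CPM in fraction 5/6, the last in replicate 3, and its difference was 0.60 ± 0.44 with that library and 1.30 without it (edgeR adjusted p = 0.612 and 0.0177). Pola1, the catalytic subunit of the polymerase that starts new strands, rose by 0.95 ± 0.16 in FMR1 KO, Rrm1 by 0.87 ± 0.19 and Mcm3 by 0.56 ± 0.13. Aurkb, a kinase of the mitotic chromosomes, had the lowest WT value at -2.33 ± 1.03 (edgeR adjusted p = 0.602, and -2.83 without the library labelled replicate 3), with 104 CPM in WT fraction 5/6 replicate 1 and 7.53 to 10.42 in the others. By role, the FMR1 KO medians were 0.77 for chromosome structure, 0.38 for the spindle and kinetochore, 0.27 for the helicase, -0.12 for replication and nucleotide supply and -0.22 for the G1 cyclins and kinases.

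These values ran with the length of the coding sequence, taken from the transcript named in the count table, which spans 783 nt (Pcna) to 9531 nt (Mki67) in the 40 genes. Across them Spearman's rho between length and enrichment was 0.77 in FMR1 KO and 0.79 in WT (0.81 without the library labelled WT fraction 5/6 replicate 3). Across all genes rho was 0.57 in FMR1 KO and 0.43 in WT. These are descriptions across genes that share the same libraries. In FMR1 KO, the 13 shortest genes had a median of -0.22 and none called, the middle 14 a median of 0.17 and 2 called, and the 13 longest a median of 0.55 and 5 called. All genes within the same ranges of length had medians of -0.23, 0.05 and 0.70, so the 40 genes followed the genes of their length in FMR1 KO. In WT the medians were -0.20, -0.09 and 0.39, against -0.14, 0.00 and 0.37 over genes of the same length. When the library labelled WT fraction 5/6 replicate 3 was left out, these medians were -0.22, -0.01 and 0.76, and 2 of the longest genes were called.

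Occupancy in the standard preparation also ran with length, with rho of 0.60 in both genotypes (0.22 and 0.16 in the low nuclease preparation), but stayed above the genes of the same length. In WT the shortest, middle and longest genes had median occupancies of 0.20, 1.17 and 1.20, where all genes of those lengths had -0.36, 0.12 and 0.45. All 13 of the longest genes were called higher in WT and 12 in FMR1 KO, against 2 of the 13 shortest in each. In FMR1 KO the medians were -0.07, 0.91 and 1.14, against -0.31, 0.19 and 0.57. Fraction 5/6 against RNA showed a weaker relation, with rho of 0.25 in WT (-0.01 without the library labelled WT fraction 5/6 replicate 3) and 0.17 in FMR1 KO.

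**Figure D3:**
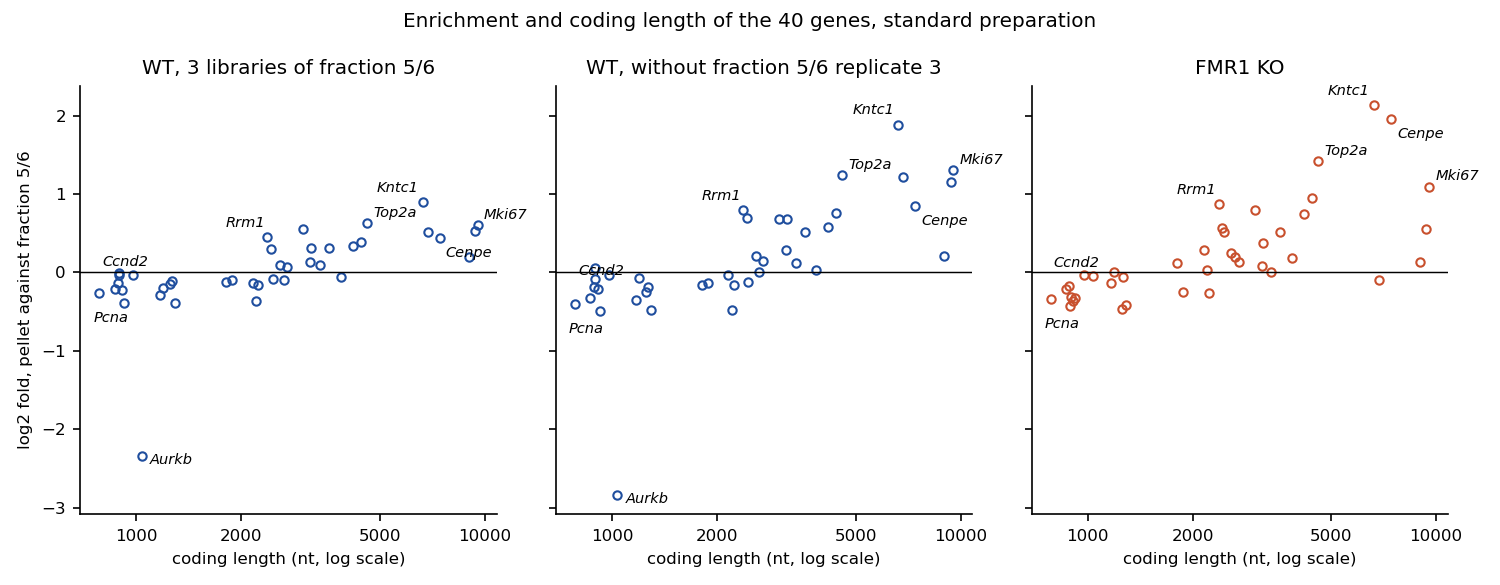
Log2 difference of pellet against fraction 5/6 for the 40 genes against coding length in nt on a log axis, in WT, in WT without the library labelled fraction 5/6 replicate 3, and in FMR1 KO (each open point is 1 gene). Spearman's rho is 0.79, 0.81 and 0.77, and in FMR1 KO Kntc1 is highest at 2.13.

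Between the genotypes, none of the 40 genes was called in RNA, in the pellet, in fraction 5/6, in occupancy or in enrichment of the standard preparation. Over all genes edgeR called 0.0797% in RNA (13 of 16313), 0.0152% in the pellet (2 of 13163), 0.0% in fraction 5/6, 0.067% in occupancy (11 of 16417) and 0.0% in enrichment. Genes at an unadjusted p under 0.05 numbered 416, 684, 614, 998 and 761 in this order, and DESeq2 called 24, 66, 77, 58 and 41, with none of the 40 among them. Of the 40, 1 had such a p in RNA, 2 in the pellet, 1 in fraction 5/6 and none in the others.

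The RNA values of the 40 genes nevertheless lay to one side. In 39 of 40 the estimate was above 0 in FMR1 KO, with a median log2 of 0.30 where all genes had 0.02 (0.23 and -0.03 with library size alone). Pola1 was the exception at -0.07. The summed level was 808, 795 and 1176 CPM in WT RNA and 933, 1292 and 1060 in FMR1 KO RNA, so the WT libraries span those of FMR1 KO replicates 1 and 3. No gene of the 40 had RNA libraries that were separate between the genotypes, where 5.5% of all genes were separate and higher in FMR1 KO and 3.3% separate and lower. Top2a had 28.8, 30.5 and 59.8 CPM in WT and 42.9, 74.9 and 49.6 in FMR1 KO (log2 0.49 ± 0.29, edgeR adjusted p = 0.996). All 10 progenitor markers were measured, and they summed to 253, 313 and 491 CPM in WT and 364, 476 and 428 in FMR1 KO, with 1 marker at 0 in WT replicate 1. Their part in the shift was not tested.

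In the pellet the median was 0.07 (0.01 over all genes) and 31 values were above 0. The summed levels were 1476, 1677 and 1420 CPM in WT and 1635, 1603 and 1679 in FMR1 KO. Of the 40 genes, 3 (Mcm6, Ect2 and Smc4) had FMR1 KO libraries that were all above the WT ones and none had them all below, where 5.35% and 5.27% of all genes did. They were not called, at log2 differences of 0.66 ± 0.36, 0.36 ± 0.14 and 0.27 ± 0.09, and edgeR's adjusted p was 0.897 or higher for each. In fraction 5/6 the median was -0.03 (0.01 over all genes), and it became 0.26 and 0.28 with library size alone. When the library labelled WT fraction 5/6 replicate 3 was left out, this median turned to 0.04 (0.03 over all genes), with 4 of 13087 genes called and none of the 40. Only 2 of the 40 had separate libraries there, where 6.3% of all genes were separate and higher in FMR1 KO and 3.62% separate and lower. These were Cdk1 (0.36 ± 0.14) and Cdk4 (0.26 ± 0.12), higher in FMR1 KO and not called (0.28 and 0.26 without that library).

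For occupancy the median difference between the genotypes was -0.21 against 0.00 over all genes, and 6 of 40 values were above 0, from -0.57 for Aurka to 0.37 for Pola1. The RNA libraries enter this difference with the opposite sign to the RNA comparison above. For enrichment the median was 0.11 against 0.01 over all genes, with the largest values for Aurkb (2.29 ± 1.17, with the high WT library noted above), Cenpe (1.52 ± 0.69, edgeR adjusted p = 0.899) and Kntc1 (1.23). The enrichment of Top2a differed by 0.79 ± 0.51. With the library labelled WT fraction 5/6 replicate 3 left out, the median was 0.07 against -0.03 over all genes, and the differences were 2.78 for Aurkb, 1.11 for Cenpe, 0.25 for Kntc1 and 0.18 for Top2a (edgeR adjusted p = 0.735, 0.964, 0.989 and 0.980). Leaving out any single library called none of the 40 in the 5 comparisons of the genotypes in the standard preparation.

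**Figure D4:**
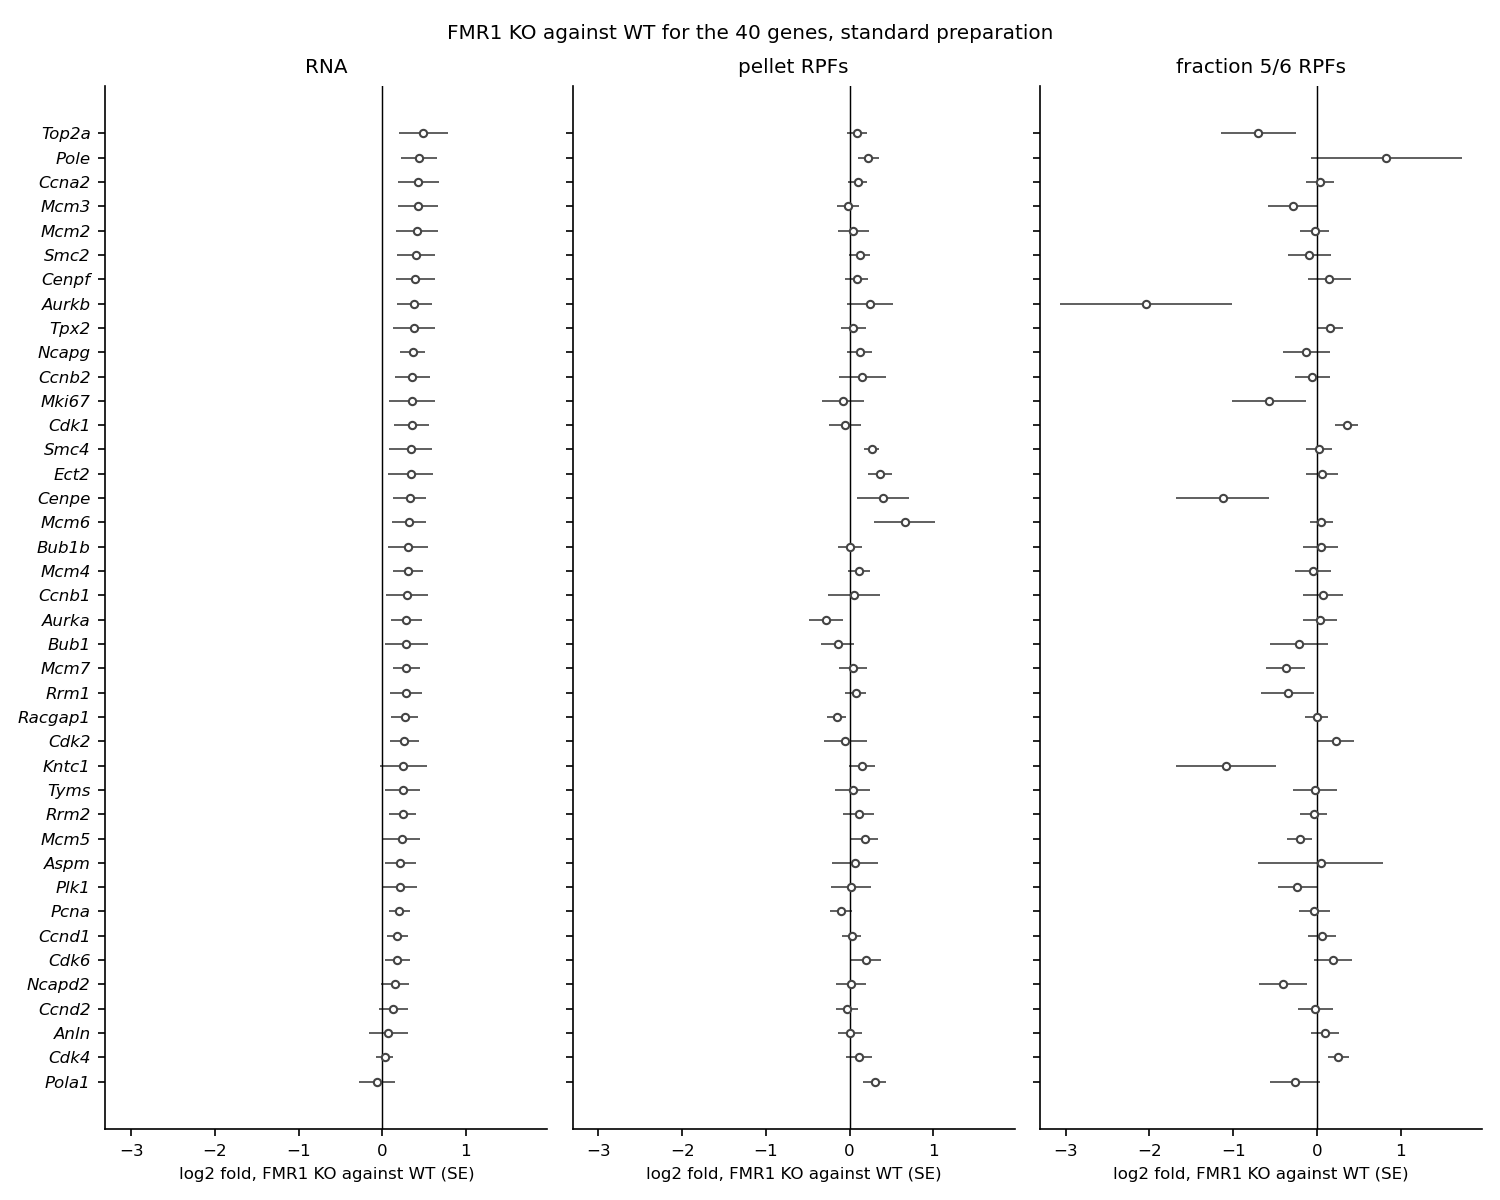
Log2 difference of FMR1 KO against WT for each of the 40 genes in RNA, pellet and fraction 5/6 of the standard preparation, with standard errors as bars. No gene is past an adjusted p of 0.05; 39 of the 40 RNA values are above 0, against 31 in the pellet and 17 in fraction 5/6.

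The low nuclease preparation gave a further set of libraries with the same groups. In it, occupancy was higher for 30 and lower for 1 of the 40 genes in WT (25.6% and 26.5% of 15553 genes), with a median of 1.22 against -0.06 over all genes. In FMR1 KO 17 were higher and none lower (15.6% and 13.4% of 15247 genes), with medians of 1.16 and -0.05. Without the 3 RNA libraries whose counts lay mostly on 10 genes, the counts were 30 higher and 2 lower in WT. The share over all genes in that fit is not given here, so these counts are not read against it. In FMR1 KO this leaves a single RNA library, so calls are not counted there. With library size alone none was called, and the medians were 1.32 in WT and 1.90 in FMR1 KO (-0.03 and 0.75 over all genes). In all 4 sets of both preparations and genotypes, 15 genes were higher: Top2a, Mcm2, Mcm3, Mcm4, Mcm5, Mcm6, Cdk1, Bub1, Rrm1, Rrm2, Pole, Kntc1, Smc2, Anln and Ect2. This list depends on the FMR1 KO set of the low nuclease preparation, where leaving out each library in turn gave 5 to 25 calls.

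Rrm1 had 16.2, 23.2 and 15.5 CPM in WT RNA of this preparation and 95.9, 106 and 92.8 in the pellet, and it rose by 2.43 ± 0.21 (edgeR adjusted p = 0.000257). Cdk1 had 2.92, 1.63 and 3.60 CPM in WT RNA and 15.1, 15.5 and 15.9 in the pellet, and rose by 2.45 ± 0.28. Smc2 rose by 2.46 ± 0.30, and Bub1, a checkpoint kinase, by 2.42 ± 0.33. Each of these had separate libraries. Ccnd2, the one WT fall, had 163, 155 and 137 CPM in RNA and 100.01, 94.0 and 95.2 in the pellet, and fell by 0.65 ± 0.17 (edgeR adjusted p = 0.013). In FMR1 KO its log2 value was -0.65 as well, with an edgeR adjusted p of 0.0578. Cenpe, which led the spindle and kinetochore genes in the standard preparation, stood at 0.70 ± 0.24 in WT and at -0.26 ± 0.57 in FMR1 KO.

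Mcm2 was higher in both kinds of RPFs and both genotypes. It had 16.0, 18.7 and 15.0 CPM in WT RNA, 36.0, 39.8 and 27.9 in fraction 5/6 and 32.2, 40.1 and 34.9 in the pellet. In FMR1 KO, Mcm2 had 15.6, 12.6 and 10.7 in RNA, 33.0, 24.7 and 36.0 in fraction 5/6 and 37.7, 28.8 and 31.1 in the pellet. Both RPF groups of Mcm2 lay above RNA in each genotype, and occupancy was 1.11 ± 0.17 and 1.32 ± 0.25. Top2a had 18.8, 41.3 and 22.0 in WT RNA, and in FMR1 KO 25.4, 23.4 and 44.9 in RNA, 37.7, 31.3 and 50.7 in fraction 5/6 and 122, 86.3 and 103 in the pellet. Mki67 had 20.2, 33.0 and 26.8 in WT RNA, and in FMR1 KO 23.9, 29.8 and 51.4 in RNA, 22.2, 15.6 and 21.3 in fraction 5/6 and 61.6, 31.8 and 40.7 in the pellet. The pellet of Top2a was separate from RNA in both genotypes (1.95 ± 0.31 and 1.74 ± 0.32), and that of Mki67 in WT only (0.72 ± 0.21, against 0.36 ± 0.38 in FMR1 KO, which was not called).

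Cdk1 had 2.86, 3.76 and 2.35 CPM in FMR1 KO RNA, 16.8, 12.8 and 16.0 in fraction 5/6 and 15.3, 11.99 and 15.6 in the pellet, with no overlap and an occupancy of 2.264 ± 0.30. Pcna had 23.4, 23.0 and 19.7 in WT RNA, 37.5, 40.2 and 35.5 in fraction 5/6 and 34.1, 34.5 and 32.5 in the pellet. It was higher in WT occupancy (0.62 ± 0.15), where it had not been called in the standard preparation. In FMR1 KO, Pcna had 32.2, 32.5 and 28.7 in RNA, 38.3, 32.0 and 36.6 in fraction 5/6 and 35.7, 29.8 and 31.8 in the pellet, and was not called (0.06 ± 0.21).

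The 5 G1 genes differed among themselves here, since in WT occupancy Cdk2 was higher, Ccnd2 lower and the others not called, and in FMR1 KO none was called. Cdk2, a kinase of the G1 to S step, had 3.24, 1.63 and 3.49 CPM in WT RNA and 6.56, 5.52 and 20.6 in the WT pellet, a rise of 1.91 ± 0.55 (edgeR adjusted p = 0.0219). It was 1.05 without the high pellet replicate 3 (edgeR adjusted p = 0.0412), and leaving out any one of the WT RNA libraries ended the call (edgeR adjusted p = 0.0541 to 0.0597). Cdk6, which fell most in the standard preparation, stood at -0.43 ± 0.18 in WT and -0.55 ± 0.28 in FMR1 KO. Ccnd2 had 92.9, 238 and 107 CPM in WT fraction 5/6, and in FMR1 KO 142, 134 and 151 in RNA, 101, 109 and 107 in fraction 5/6 and 86.7, 89.8 and 95.8 in the pellet. Ccnd1 had 39.6, 28.1 and 30.2 in WT RNA, 29.0, 31.0 and 36.3 in fraction 5/6 and 25.9, 27.01 and 28.3 in the pellet, and its occupancy was not called (-0.27 ± 0.18). In FMR1 KO, Ccnd1 had 30.6, 20.9 and 16.2 in RNA, 32.3, 33.2 and 34.3 in fraction 5/6 and 24.7, 24.7 and 27.6 in the pellet (0.18 ± 0.28, not called). Cdk4, which had fallen in the standard preparation, had log2 values that were not called (0.11 ± 0.22 in WT and 0.25 ± 0.31 in FMR1 KO). It had 63.3, 36.0 and 45.0 in WT RNA, 65.1, 61.6 and 60.9 in fraction 5/6 and 53.4, 53.3 and 49.1 in the pellet. In FMR1 KO, Cdk4 had 57.1, 31.9 and 28.7 in RNA, 73.3, 56.5 and 63.5 in fraction 5/6 and 47.8, 42.9 and 50.3 in the pellet.

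Single RPF libraries decide some values in this preparation. Racgap1, which acts at the cleavage furrow, had 36.0, 136 and 29.1 CPM in the FMR1 KO pellet, and Kntc1 had 46.7, 7.496 and 51.3. Their FMR1 KO occupancies, 2.56 ± 0.63 and 3.74 ± 0.73, carry that spread. Pole had 67.4 CPM in replicate 1 of the FMR1 KO pellet and 15.6 to 22.1 in the others. In fraction 5/6, Aurkb had 140.7 CPM in WT replicate 3 and 10.55 in both other libraries, Kntc1 had 78.3 in WT replicate 1 and 2.35 to 3.64 in the others, and Mcm5 had 215 in FMR1 KO replicate 1 and 41.2 to 57.2 in the others. All these libraries stayed in the main fits, and the values of these genes without them are not printed.

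Fraction 5/6 against RNA gave 26 higher and 4 lower in WT (26.7% and 30.6% of 15703 genes) and 13 higher and 2 lower in FMR1 KO (15.8% and 18.6% of 15511 genes). The medians were 1.16 and 0.75, against -0.08 and -0.06 over all genes. With library size alone none was called, and the medians were 1.36 and 1.86, against 0.04 and 0.95 over all genes. Without the 3 RNA libraries the counts were 26 and 1 in WT, again with no share over all genes given. Calls are not counted in FMR1 KO, where 1 RNA library is left. Over both preparations and genotypes, 9 genes were higher in fraction 5/6 each time: Mcm2, Mcm4, Mcm5, Mcm6, Cdk1, Rrm1, Rrm2, Racgap1 and Ect2. Cenpe and Aspm, both with long coding sequences, fell here, Cenpe by 0.76 ± 0.27 in WT and 1.99 ± 0.59 in FMR1 KO and Aspm by 0.69 ± 0.25 and 1.42 ± 0.45.

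Enrichment in the low nuclease preparation was called for genes of both genotypes. In WT, 8 were higher and 2 lower (13.7% and 8.88% of 15569 genes), and in FMR1 KO 9 were higher and 1 lower (8.75% and 7.04% of 15561 genes). The medians were -0.03 and 0.16, against -0.03 and 0.00 over all genes. Leaving out each library in turn gave 2 to 10 calls in WT and 0 to 5 in FMR1 KO. Mki67, Top2a, Pola1, Cenpe, Ncapd2, Ncapg and Aspm were higher in both genotypes, and the first 4 of these also in FMR1 KO of the standard preparation. Cenpe had 4.01, 4.52 and 3.58 CPM in WT fraction 5/6 and 11.6, 10.9 and 10.6 in the WT pellet, with separate libraries and a rise of 1.45 ± 0.13 (edgeR adjusted p = 0.00614). In FMR1 KO it rose by 1.73 ± 0.23. Aspm, a spindle pole protein needed for normal brain size, rose by 1.44 ± 0.12 in WT and 1.68 ± 0.22 in FMR1 KO. Top2a had 52.6, 60.4 and 39.3 CPM in WT fraction 5/6 and 95.1, 114 and 107 in the pellet, and rose by 1.05 ± 0.18 in WT and 1.38 ± 0.22 in FMR1 KO.

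Mki67 rose by 0.79 ± 0.15 in WT and 1.18 ± 0.28 in FMR1 KO, from 28.4, 26.5 and 21.02 CPM in WT fraction 5/6 to 40.1, 49.4 and 41.5 in the WT pellet. Cdk1 fell in WT by 0.37 ± 0.09, from 20.5, 19.1 and 20.6 CPM in fraction 5/6 to 15.1, 15.5 and 15.9 in the pellet. Aurka fell by 0.58 ± 0.13 in WT and Ccnd1 by 0.37 ± 0.09 in FMR1 KO. Spearman's rho with coding length was 0.50 in WT and 0.81 in FMR1 KO across the 40 genes, and 0.48 and 0.60 across all genes. The 13 longest genes had medians of 0.51 and 0.97, where all genes of their length had 0.61 and 0.63. Between the genotypes none of the 40 was called in this preparation by edgeR, where 0.0% of 15750 genes were called in RNA, 0.0197% of 15245 in the pellet (3 genes) and 0.0572% of 15721 in fraction 5/6 (9 genes). Unadjusted p under 0.05 was reached by 254, 698 and 1205 genes, and DESeq2 called 1, 88 and 196 genes, 1 of the 40 among the last. The medians of the 40 were 0.10 in RNA, -0.07 in the pellet and -0.27 in fraction 5/6, against -0.07, 0.01 and 0.00 over all genes. Libraries of the genotypes were separate and higher in FMR1 KO for 3 of the 40 genes in RNA and none in the pellet or fraction 5/6 (3.3%, 5.96% and 8.4% of all genes), and separate and lower for 1, 3 and 7 (2.17%, 4.05% and 6.04%).

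The pellet RPFs of the standard preparation were then set directly against those of the low nuclease one. Per the methods of the study, the nuclease product and amount, the digestion temperature, the recovery of digested ribosomes and MgCl2 differ together here. They cannot be told apart. In WT 16 of the 40 genes were higher in the standard preparation and 1 lower (19.0% and 22.2% of all genes), with medians of 0.38 and 0.02. In FMR1 KO 15 were higher and none lower (7.62% and 9.37%), with medians of 0.52 and 0.00. With library size alone, 2 were higher and 2 lower in WT and 1 and 1 in FMR1 KO, at medians of -0.19 and 0.03 where all genes had -0.56 and -0.52. Leaving out each library in turn gave 6 to 20 calls in WT and 0 to 20 in FMR1 KO. Top2a, Ccna2, Bub1b, Rrm1, Cenpe, Cenpf, Smc4 and Aspm were higher in both genotypes.

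Cenpe had the largest rise in both genotypes, and Cenpf rose as well. Of the 7 spindle and kinetochore genes, 6 were higher in WT and 5 in FMR1 KO, with 0 lower. Kntc1 of this role stood at -1.01 in FMR1 KO and was not called, with its low nuclease libraries far apart. Cenpe had 28.9, 25.9 and 42.1 CPM in the standard WT pellet and 11.6, 10.9 and 10.6 in the low nuclease one, a log2 difference of 1.54 ± 0.20 (edgeR adjusted p = 0.00412). Cenpf had 32.6, 41.6 and 32.9 against 15.2, 16.2 and 16.6, a difference of 1.16 ± 0.13 (edgeR adjusted p = 0.00281). The libraries were separate for both, and in FMR1 KO the differences were 1.97 ± 0.31 and 1.30 ± 0.20. Cdk6 went down in WT, with 5.86, 7.36 and 6.71 CPM in the standard pellet and 10.9, 12.8 and 10.45 in the low nuclease one (log2 -0.78 ± 0.15, edgeR adjusted p = 0.0113).

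**Figure D5:**
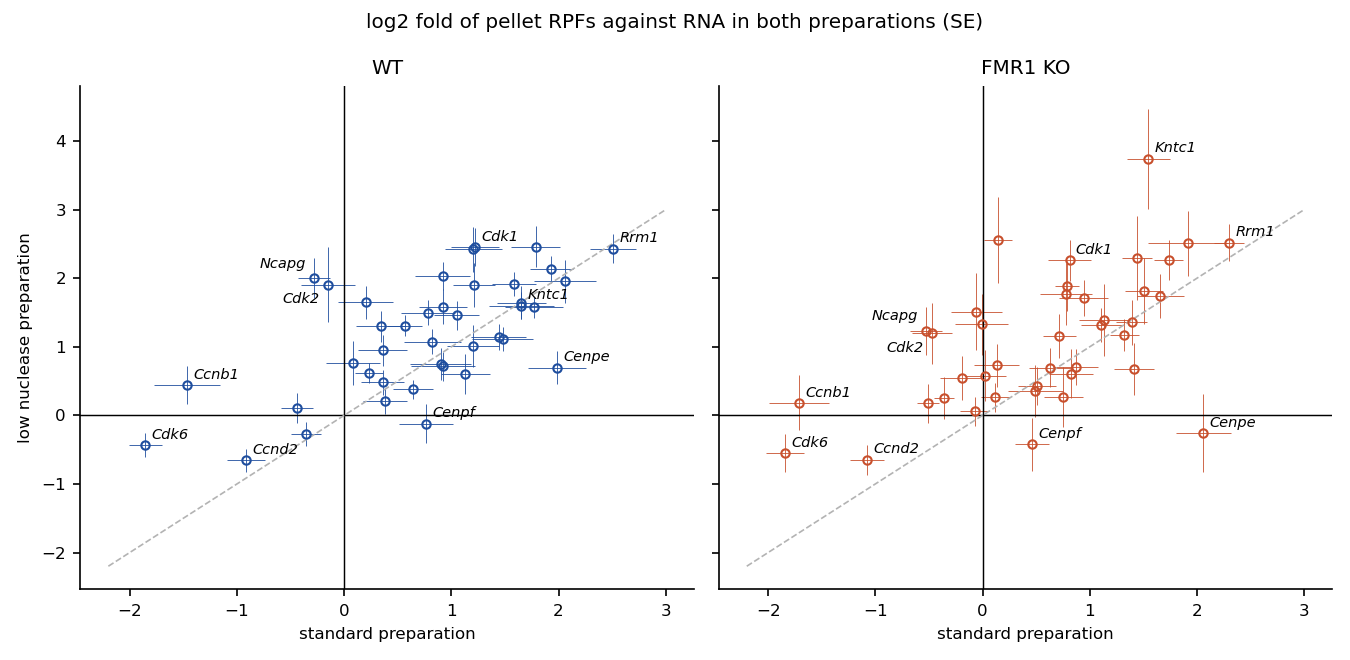
Log2 difference of pellet against RNA for the 40 genes in the low nuclease preparation (vertical axis) against the standard preparation (horizontal axis), for WT and FMR1 KO, with the dashed line at equality. Rrm1 lies near the line in WT (2.51 and 2.43), and Cenpe lies below it (1.99 and 0.70).

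Other genes of the same machinery, from lists that leave out the 40, were counted in the same fits of the standard preparation, where 28.8% of all genes were higher and 37.0% lower in WT occupancy and 30.5% and 36.5% in FMR1 KO. Of 42 other replication genes, 25 had higher and 4 lower occupancy in WT and 20 and 8 in FMR1 KO, with medians of 0.76 and 0.41. Of 47 other genes of mitosis, 33 were higher and 4 lower in WT and 31 and 5 in FMR1 KO, with medians of 1.02 and 0.90. Of 23 regulators of the G1 to S step, 6 were higher and 10 lower in WT and 5 and 13 in FMR1 KO, with medians of -0.28 and -0.57 against -0.20 and -0.11 over all genes. Of the CDK inhibitors, 1 of 7 was higher and 1 lower in WT, and 1 of 6 tested was higher and 2 lower in FMR1 KO. For enrichment in FMR1 KO, 14 of the genes of mitosis were higher and 2 lower, 3 of the replication genes higher and 1 lower, and none of the regulators or inhibitors was called. Over all genes 8.06% were higher and 3.49% lower there. In WT no gene of the 4 lists was called for enrichment, where 0.0152% of all genes were higher and 0.00762% lower.

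Markers of cell types are given beside these. Of 10 neuron markers, 6 were higher and 2 lower in WT occupancy and 5 and 3 in FMR1 KO. Of 10 progenitor markers, 2 were higher and 1 lower in WT and 3 and 3 in FMR1 KO, with medians of 0.13 and -0.03, below those of the 40 genes. Counts in WT were 3 higher and none lower of 6 astrocyte markers, 1 and 3 of 8 markers of the oligodendrocyte lineage, 2 and 2 of 6 of microglia, none and 3 of 5 of endothelium, and none and 5 of 5 of blood. In FMR1 KO they were 3 and none for astrocytes, 1 and 3 for the oligodendrocyte lineage, 1 and 2 for microglia, none either way for endothelium and none and 5 for blood. The 5 endothelial markers had a median of -1.30 in WT, with none above 0, and of 0.55 in FMR1 KO, with 4 above 0. Their occupancy was not called different between the genotypes, with an edgeR adjusted p of 0.747 or higher for each. Neuron markers summed to 4744 to 5619 CPM in the standard RNA libraries and 10132 to 11535 in the pellet. The part of cell types in the occupancy of the 40 genes was not tested.

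The deposited peaks of the 12 standard RPF libraries numbered 11389 to 36435 per library, and 24 to 140 of them (0.211% to 0.464%) lay on the 40 mRNAs. Of all these peaks, 1062 (98.0%) had their middle in the coding sequence, 3 before it and 19 after it. In any library 25 of the 40 genes had a peak, and 5 had peaks in all 12: Ccnd1 (2 to 8 per library), Ccnd2 (5 to 16), Pcna (5 to 9), Rrm1 (2 to 16) and Rrm2 (3 to 10). Over the libraries Ccnd2 had the most peaks (139), followed by Top2a (125), Mcm4 (119) and Rrm1 (99). In the 6 pellet libraries alone the order was Mcm4 (79), Top2a (77) and Ccnd2 (73). Genes with a peak in every library of a group numbered 13 in each pellet, 10 in WT fraction 5/6 and 5 in FMR1 KO fraction 5/6. Libraries differ in how many peaks were called in all, and these counts were not scaled for that. Those of WT fraction 5/6 include the library labelled WT fraction 5/6 replicate 3, and no count without it is given.

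Positions shared by the 3 libraries of a group, again counted for each group by itself, were 5 in the WT pellet, 7 in the FMR1 KO pellet, 1 in WT fraction 5/6 and 3 in FMR1 KO fraction 5/6, the windows printed above being among them. The library labelled WT fraction 5/6 replicate 3 is included here too. No position was shared by the 6 pellet libraries or by all 12. At a distance of 17 nt, 49 positions were shared within a group, 3 by both pellets, all in Ccnd2, and 2 by both fractions 5/6, both in Pcna. Ccnd2 codon 150 of the FMR1 KO pellet and codon 152 of the WT pellet are neighbours whose windows overlap. Pcna codon 208 is held by the printed windows of the FMR1 KO pellet and of FMR1 KO fraction 5/6, which are shifted by 1 nt against each other.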

How the data were processed

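RPFs and RNA of 36 libraries were analysed, 3 per group. Per the methods of the study, the authors trimmed reads with cutadapt 2.10, removed ribosomal and non-coding RNA with Bowtie2 2.3.5, aligned to GRCm38 with STAR 2.7.8a, removed duplicates marked by Picard with SAMtools 1.19.2 and deposited raw counts per gene from featureCounts 2.2.0. The barcodes tell samples apart, not molecules. The deposited peak heights are signal (RPF coverage) called by the authors per library on transcripts and not scaled; the methods give a minimum height relative to the transcript's average, and the files do not state whether they hold only such peaks. The labels' M-protocol was read as the standard preparation and control as the low nuclease one, from the methods.

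Protein-coding genes (GENCODE M21) were kept, Cdk8 was removed, and the 20 rows without annotation were left out. The 92 rows without a gene name were kept under their identifiers where protein-coding. Genes passed filterByExpr within each comparison. Libraries were scaled by TMM over all 36, and edgeR 4.0.16 in R 4.3.3 tested each comparison by quasi-likelihood (glmQLFit and glmQLFTest), with Benjamini-Hochberg adjustment over all genes tested and a threshold of 0.05. Standard errors come from the log2 difference and its F statistic. Occupancy and enrichment differences between genotypes are interactions. Alternatives were DESeq2 1.42.0, library size alone, TMM within the compared libraries, Cdk8 kept, no filter, a filter at 1 CPM, one fit over all groups, the replicate block and leaving out each library. Peak positions were handled in pandas 2.3.3 and numpy 2.4.6 under Python 3.11.15, with Spearman's rho from scipy 1.17.1, coding lengths from the transcript that the count table names (16372 genes) and figures from matplotlib 3.10.9. The scripts were tested on simulated data.

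Same-numbered libraries were taken as pairs where all 3 correlations of their deviations were over 0.1, which held only for pellet and fraction 5/6 of WT in the low nuclease preparation (0.20, 0.11 and 0.22; WT fraction 5/6 against RNA there had 0.090, 0.076 and 0.14), where 9 members were higher and 2 lower with the replicate block. The members, roles and lists were chosen with earlier results of these data known. Values in every library are given for Mki67, Top2a, Pcna, Mcm2, Ccnd1, Ccnd2, Cdk1 and Cdk4, and differences for up to 5 members with the largest rise and 5 with the largest fall among the called ones with separate libraries; others named were chosen after their values were seen. Proteins were not analysed here.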

Additional observations from a re-analysis of the deposited data

How the results depend on the processing

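Values are numbers of the 40 genes called in either direction. With library size alone as the scaling, WT occupancy went from 30 to 19 and WT fraction 5/6 against RNA from 21 to 9 in the standard preparation, FMR1 KO enrichment from 7 to 2, and occupancy and fraction 5/6 against RNA of the low nuclease preparation from 31, 17, 30 and 15 to 0. The standard pellet against the low nuclease one went from 17 to 4 in WT and from 15 to 2 in FMR1 KO. With the replicate block, FMR1 KO enrichment (standard) gave 3 and the FMR1 KO preparations 2. Correlations of same-numbered libraries were 0.019, 0.14 and 0.24 for the former. These cannot show whether the libraries are paired. In one fit over all groups, WT enrichment of the low nuclease preparation gave 2 (10 otherwise), FMR1 KO fraction 5/6 against RNA 24 (15), and the preparations 6 in WT and 9 in FMR1 KO. DESeq2 gave 23 for FMR1 KO fraction 5/6 against RNA (low nuclease) and 1 for FMR1 KO against WT fraction 5/6 (low nuclease). The cause was not tested in these cases. Shared peak positions, summed over the groups, went from 16 to 49 at 17 nt and to 10 with only peaks at or above the median height.

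Leaving out each library in turn gave, in the standard preparation, 22 to 31 for WT occupancy, 26 to 31 for FMR1 KO occupancy, 13 (without WT RNA replicate 1) to 24 for WT fraction 5/6 against RNA, 17 to 24 for FMR1 KO, 0 to 2 for WT enrichment (2 without fraction 5/6 replicate 3) and 2 to 8 for FMR1 KO enrichment (2 without pellet replicate 1, fraction 5/6 replicate 1 or fraction 5/6 replicate 3, and 3 without pellet replicate 3). In the low nuclease preparation it gave 25 to 32 for WT occupancy, 5 to 25 for FMR1 KO occupancy (10 and 11 without pellet replicates 1 and 3, 5 without RNA replicate 2), 24 to 27 and 6 to 21 for fraction 5/6 against RNA (in FMR1 KO 8, 9 and 6 without fraction 5/6 replicates 1, 2 and 3, and 6 without RNA replicate 2), 2 to 10 for WT enrichment (3, 3 and 2 without pellet replicates 1, 2 and 3, 5 without fraction 5/6 replicate 1 or 3) and 0 to 5 for FMR1 KO enrichment (5, 4 and 5 without pellet replicates 1, 2 and 3, and 0, 0 and 2 without those of fraction 5/6). For the preparations it gave 6 to 20 in WT (7 and 11 without standard replicates 1 and 2, 6 and 8 without low nuclease replicates 1 and 3) and 0 to 20 in FMR1 KO (0, 9 and 3 without standard replicates 1, 2 and 3, 4 and 1 without low nuclease replicates 2 and 3). FMR1 KO against WT stayed at 0 without any library, apart from 1 in the low nuclease pellet without FMR1 KO replicate 2. Of 119 called differences named by size or belonging to the 8 genes given for every library, library size alone kept 50, lost 65 and reversed 4, without the reversed values passing the test: in WT occupancy Mki67 was at -0.15, in FMR1 KO occupancy Cdk1 at -0.23, and in the standard against the low nuclease WT pellet Mki67 at -0.029 and Pcna at -0.14. One fit over all groups lost 20, the replicate block 13, leaving out the 3 concentrated RNA libraries 10 (28 kept), and DESeq2, TMM within the compared libraries, Cdk8 kept and no filter lost 5, 5, 4 and 2. Leaving out each library in turn kept 540 and lost 174. Of all 253 called values of the 40 genes, library size alone changed the sign of 39, and none of these other settings changed any. The shallowest RPF library held 4284209 counts without Cdk8, and low genes such as Bub1 and Kntc1 are limited by it.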
